A study of Mus musculus with 2 samples.

Results

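The CCR4-NOT complex and its partner Pan3 were examined as a group of 8 genes, Cnot1, Cnot2, Cnot3, Cnot6, Cnot6l, Cnot7, Cnot8 and Pan3, taken by symbol from a map of Ago2 binding in mouse embryonic stem cells. All 8 had rows in the deposited table of seed matches, which covered 15271 genes, and 6 of them had at least 1 entry in the list of enriched Ago2 clusters. Their rows came to 1452 of 1641948 in the site table and 24 of 6211 in the cluster list. After repeated and nested rows were removed, they held 599 of 687523 distinct matches to the listed seeds and 573 of 724083 further 8mers that extend none of those seeds. The list named 50 seeds, each given as the 7mer in the transcript that pairs with it.

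Ago2 is the Argonaute protein that holds a microRNA and is guided by it to target transcripts, and iCLIP sequences the RNA fragments that ultraviolet light has joined to a protein. The cells were embryonic stem cells with human Ago2 as their only Argonaute family member, in clonal lines, each a product of a single clone. In the line TT-FHAgo2 the protein was doxycycline-inducible and carried FLAG and HA tags, and in the line TT-Ago2 it was untagged. Each line was propagated at 0.1 µg/mL doxycycline and brought to 2.5 µg/mL for 24 h. Lysates were partly digested with RNase I and purified on FLAG and then HA antibodies, so the untagged line measures background. There was 1 library per line. No spread between replicates exists, no test between the lines is given, and every interval below covers counting error only. Reads came from PCR, and the sources used here mention no molecular identifiers. The tagged library held 789000 reads as recovered from the site table. The untagged library enters only through the enrichment values of the cluster list. All 7 embryonic stem cell markers were listed, at 40.3 to 609 FPKM, whereas 9 of 16 markers of primitive endoderm, trophectoderm, fibroblasts, neural cells and mesoderm were, at 0.165 to 45 FPKM. The upper end was Vim, which embryonic stem cells also express.

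Most messenger RNAs carry a poly(A) tail, and its shortening, deadenylation, is usually the first step of their decay. The CCR4-NOT complex is the main deadenylase of the cytoplasm. A scaffold, Cnot1, carries a module of Cnot2 and Cnot3 and a pair of nucleases, 1 of the CCR4 type (Cnot6 or Cnot6l) and 1 of the CAF1 type (Cnot7 or Cnot8). The Pan2-Pan3 complex trims long tails, and Pan3 is the subunit that brings the nuclease Pan2 to the transcript. MicroRNAs silence their targets in part through these enzymes, because the GW182 proteins bound to Argonaute recruit both complexes. The data below concern the reverse relation, Ago2 on the transcripts of the deadenylase genes themselves.

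The microRNAs whose seed matches lay under the members' clusters are shown first, as mature sequences from RefSeq (GRCm38.p6), 5′ to 3′, with the seed, bases 2 to 8, in capitals. Examples are given for each shared seed. Matching was by seed alone, so no sequence here shows which microRNA was bound.
miR-19a-3p: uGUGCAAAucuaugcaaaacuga
miR-19b-3p: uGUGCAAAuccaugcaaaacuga
miR-291a-3p: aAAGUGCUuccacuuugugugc
miR-294-3p: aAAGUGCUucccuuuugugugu
miR-302b-3p: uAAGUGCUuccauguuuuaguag
miR-290a-3p: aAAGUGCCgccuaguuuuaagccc
miR-17-5p: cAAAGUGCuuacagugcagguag
miR-20a-5p: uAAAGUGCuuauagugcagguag
miR-148a-3p: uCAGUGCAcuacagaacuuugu
miR-152-3p: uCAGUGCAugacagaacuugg
miR-290a-5p: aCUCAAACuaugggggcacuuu
miR-15a-5p: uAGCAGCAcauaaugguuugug
miR-16-5p: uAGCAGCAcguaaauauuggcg
miR-23a-3p: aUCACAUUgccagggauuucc
miR-24-3p: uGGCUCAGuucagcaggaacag
miR-423-3p: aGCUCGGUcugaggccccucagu
The pair of miR-19 sequences shares the seed GUGCAAA, and miR-291a-3p, miR-294-3p and miR-302b-3p share AAGUGCU. The miR-290 to miR-295 cluster is the most abundant microRNA cluster of mouse embryonic stem cells, and miR-17, miR-19 and miR-20 are made from the miR-17 to miR-92 clusters.

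The transcript stretches that lay under the members' clusters and held a listed 7mer or 8mer follow, all 15 of them, in the direction of the transcript. Capitals mark the 7mer or 8mer, and where matches of different seeds overlap, the capitals run through both. Lower case letters belong to other rows of the site table that adjoin or overlap the match. Coordinates are on mm9, and all of these genes lie on the minus strand.
Cnot6 3′ UTR, chr11:49486460-49486466: GTTTGAG
Cnot6 3′ UTR, chr11:49488080-49488088: TTTGCACTG
Cnot6 3′ UTR, chr11:49485695-49485702: AGCACTTT
Cnot6 3′ UTR, chr11:49487085-49487097: gagaCTGAGCCAt
Cnot6 3′ UTR, chr11:49487728-49487738: ACCGAGCActg
Cnot6 coding, chr11:49488759-49488771: cacttTTTGCACA
Cnot6 coding, chr11:49496697-49496705: GGCACTTAa
Cnot6l 3′ UTR, chr5:96504660-96504667: GCACTTTA
Cnot6l 3′ UTR, chr5:96504637-96504643: AATGTGA
Cnot6l 3′ UTR, chr5:96505692-96505699: TTTGCACA
Cnot6l 3′ UTR, chr5:96505676-96505684: AGCACTTAa
Cnot6l 3′ UTR, chr5:96504705-96504712: TGCTGCTA
Cnot7 3′ UTR, chr8:41578943-41578953: TTTGCACTTTA
Cnot1 coding, chr8:98254497-98254506: TTTGCACTGA
Cnot1 coding, chr8:98272894-98272905: agtatTGCACTG
The miR-19 match TTTGCAC was in stretches of 4 genes, Cnot1, Cnot6, Cnot6l and Cnot7. In Cnot7 its last 4 bases were also the first 4 of the miR-17 and miR-20 match GCACTTTA. In Cnot6 and Cnot1 it overlapped the miR-148 and miR-152 match by 5 bases. The miR-291a and miR-17 matches of Cnot6 overlapped by 6 bases. In Cnot6l the matches stood apart, with 7 bases between TTTGCACA and AGCACTTA and 16 between GCACTTTA and AATGTGA. Overlapping matches share their reads and cannot be told apart by them. The matches CTGAGCCA of Cnot6 and AATGTGA of Cnot6l reach past the edge of their cluster, and the others lie wholly inside.

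Ago2 clusters were concentrated in the genes of the CCR4-type nucleases. Cnot6 had 12 clusters and Cnot6l 7, together 79.2% of the 24, while Cnot1 had 2, Cnot7, Cnot8 and Pan3 had 1 each, and Cnot2 and Cnot3 had none. A cluster was present in 6 of the 8 genes, against a background of 17.1% of all genes in the site table and 22.2% of those listed at 1 FPKM or more. Only 1.51% of all genes had 5 clusters or more, as Cnot6 and Cnot6l did. In the whole list 14 gene names had more clusters than Cnot6 and 8 had as many. For Cnot6l these numbers were 73 and 29. Counts per gene were not scaled to transcript length. On the genome, listed 3′ UTR sites spanned 3607 nt in Cnot6 and 6993 nt in Cnot6l. They spanned 144 nt in Cnot3, 886 in Cnot1, 893 in Cnot8, 1294 in Cnot7 and 2080 in Pan3. In Cnot2 the span was 25145 nt, over 3′ UTRs of different isoforms.

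The 24 clusters held 230 reads of the tagged library and 6 implied reads of the untagged library, counted per cluster. Because overlapping clusters share reads, and the 24 form 19 separate stretches, the sum counts some reads more than once. The number implied for the untagged library was read back from the deposited enrichment, and how the authors scaled it is not known. It was 0 in 19 clusters (79.2%, against 85.6% of all clusters). The clusters lay in 3′ UTRs in 18 cases (75%, against 61.3% of all) and in coding sequence in 6, and their median width was 45.5 nt (24 to 98). A p under 0.01 was listed for 15 (62.5%, against 49.6%), and at that threshold 3 genes, Cnot6, Cnot6l and Cnot8, had a cluster.

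**Figure D1:**
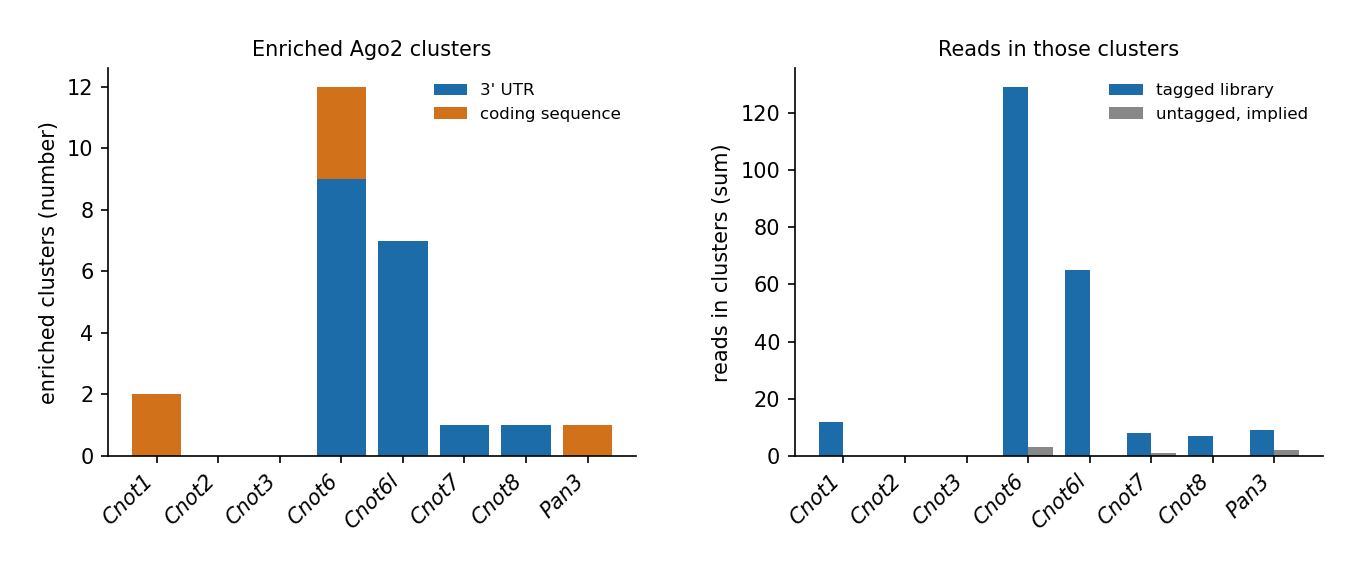
The number of enriched clusters per gene (left, stacked by region) and the sum of reads in them (right, tagged library beside the number implied for the untagged library), 1 library per line and no error bars. Cnot6 and Cnot6l stand above the others with 12 and 7 clusters, and Cnot2 and Cnot3 have none.

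The plot of clusters and reads by gene shows that the order of the genes was not the order of their transcript levels. Levels are FPKM of the isoforms that share a site, given here as the highest value listed for each gene. From bulk cells they cannot tell fewer expressing cells from less RNA per cell. Cnot1 was listed at 90.5 FPKM, Cnot7 at 42.9, Cnot8 at 34.1, Cnot3 at 29.9, Cnot6 at 21.6 and Cnot2 at 16.1. Cnot6l and Pan3 were the lowest, at 3.83 and 3.79 FPKM. Among genes within 2-fold of the level of Cnot6, 27.9% had a cluster and 0.207% had as many as 12. Among those within 2-fold of Cnot6l, 16.6% had a cluster and 0.524% had as many as 7. For Cnot2 and Cnot3, which had none, 26% and 28.4% of genes at their level had a cluster. None of these shares is matched for transcript length. The highest value overstates Cnot2 at its listed sites, which were at 0.275 to 2.63 FPKM. The matched shares below use the level of each site.

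Cnot6 encodes a CCR4-type nuclease, which removes adenosines through an endonuclease-exonuclease-phosphatase fold. Of its 12 clusters, 9 lay in the 3′ UTR and 3 in coding sequence, with 129 tagged reads and 3 implied untagged reads. They formed 9 separate stretches, and 7 of the 12 overlapped a listed 7mer or 8mer. In the authors' deposited table the cluster with the lowest p, 9.5367e-07, was at chr11:49486445-49486542 in the 3′ UTR. It had 20 tagged reads and 0 implied untagged reads, 6.67-fold on a floor of 3 untagged counts per cluster. It covered the miR-290a-5p match GTTTGAG shown above, at which 18 reads were recorded. It also covered a 6mer, GCACTT, of the miR-291a family, named here after its value was seen, at which 30 reads were recorded. A site can exceed its cluster in reads, and the window over which the authors counted site reads is not stated. Fold values on the floor leave out the counting error of the tagged reads, unlike the exact intervals given for clusters with an untagged read.

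The next cluster of Cnot6, at chr11:49488060-49488112 in the 3′ UTR, had p = 0.0001 in the authors' deposited table. It had 13 tagged reads and 0 implied untagged reads, 4.33-fold on the floor of 3 counts. It held TTTGCACTG, where the miR-19 and miR-148 matches overlap, and each match had 14 reads. The third, at chr11:49488714-49488779, was in coding sequence, with p = 0.0002 in the authors' deposited table. It had 12 tagged reads and 0 implied untagged reads, 4-fold on the floor. It held the 8mer TTTGCACA with 13 reads, a full match to the miR-19 seed followed by A. The other 9 clusters of Cnot6 had 5 to 13 tagged reads, and 3 of those 9 had 1 untagged read. The remaining coding 8mer under a cluster, GGCACTTA of the miR-290a-3p seed, had 12 reads.

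Cnot6l, the close paralog of Cnot6 and an alternative nuclease in the complex, had 7 clusters, all in the 3′ UTR, with 65 tagged reads and 0 untagged reads. They formed 5 stretches, and 5 of the 7 overlapped a listed 7mer or 8mer. Its cluster with the lowest p, 2.3842e-07 in the authors' deposited table, was at chr5:96505998-96506050. It had 22 tagged reads and 0 implied untagged reads, 7.33-fold on the floor of 3 counts. Of the listed matches that cluster held only a 6mer, AGTATT, at which 23 reads were recorded. It also held an 8mer that extends no listed seed, TGATATCA, named after its value was seen, with 22 reads. The cluster at chr5:96504638-96504689 had 11 tagged reads and 0 implied untagged reads, 3.67-fold on the floor, with p = 0.0005 in the authors' deposited table. It held GCACTTTA with 11 reads and AATGTGA, the miR-23 match, with 7. The cluster at chr5:96505671-96505702 had 7 tagged reads and 0 implied untagged reads, 2.33-fold on the floor, with p = 0.0078 in the authors' deposited table. It held TTTGCACA with 10 reads and AGCACTTA with 8.

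**Figure D2:**
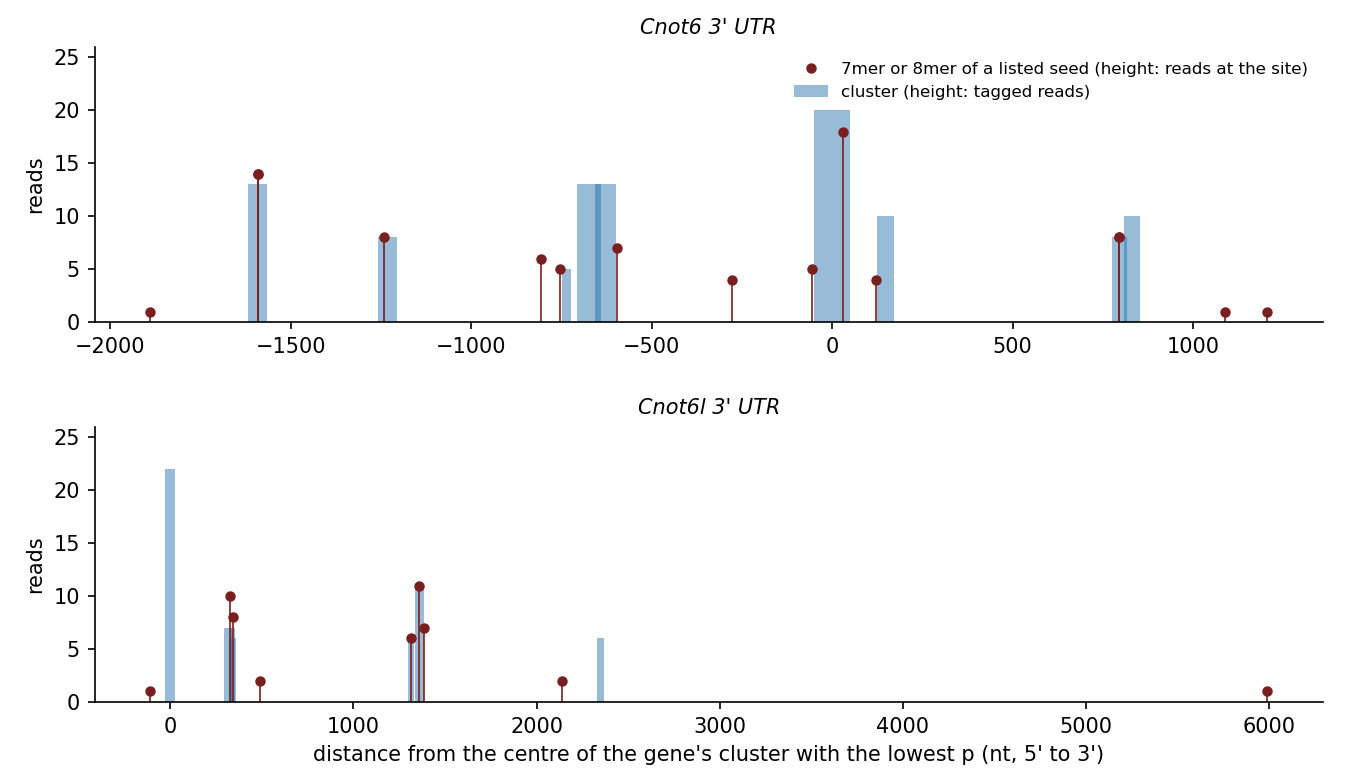
Clusters (bars, height in tagged reads) and listed 7mer and 8mer sites with at least 1 read (points, height in reads) along the 3′ UTRs of Cnot6 and Cnot6l, by distance in nt from the centre of the gene's cluster with the lowest p. The 9 clusters of Cnot6 are spread over 2472 nt, and the 7 of Cnot6l over 2395 nt, with no cluster of Cnot6l distal to that span.

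The maps of the 3′ UTRs show clusters that covered a small part of a long region in each gene. In Cnot6 they covered 458 nt, and the listed sites spanned 3607 nt. In Cnot6l they covered 240 nt, and the sites spanned 6993 nt. The deposited isoforms divide these regions further. In the proximal 3′ UTR of Cnot6, shared by 2 isoforms at 21.6 FPKM, 5 of 10 listed sites had a read, with 8 reads in all. In the distal part, assigned to 1 isoform at 12.2 FPKM, 39 of 48 sites had a read, with 223 reads, and all 13 sites inside 3′ UTR clusters were there. In Cnot6l the most distal part, assigned to 1 isoform at 0.376 FPKM, had reads at 16 of 85 sites and 18 reads, and none of its listed sites was in a cluster, although a cluster without a listed match lay there. The 3 sites just proximal to it, in 2 isoforms at 0.542 FPKM, all had reads, 24 in all.

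The CAF1-type nucleases, which belong to a different fold family, had a cluster each. Cnot7 had 1 in its 3′ UTR, at chr8:41578911-41578963, with p = 0.0195 in the authors' deposited table. The cluster had 8 tagged reads and 1 implied untagged read, a ratio of 8 (1.07 to 355, exact interval). It lay on TTTGCACTTTA, where the miR-19 match and the miR-17 match overlap, and each match had 8 reads. The next 7mer of Cnot7, TACTTGA of miR-26, had 1 read, and no further listed 7mer or 8mer had any. At other 8mers in its 3′ UTR, 3 of 24 sites had a read, with 7 reads in all. Cnot8 had 1 cluster in its 3′ UTR, at chr11:57931178-57931218, with p = 0.0078 in the authors' deposited table. The cluster had 7 tagged reads and 0 implied untagged reads, 2.33-fold on the floor of 3 counts. It overlapped the 6mer TGCCTT and no longer match. The best-covered 7mers of Cnot8 were outside the cluster, with 3 reads at GTCTTCC, the miR-7 match, and 1 each at GCACTTT in coding sequence and CCTCTGC in the 3′ UTR.

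Cnot1, the scaffold on which the complex is built, had the highest level of the 8 genes and 2 clusters, both in coding sequence. Each had 6 tagged reads and 0 implied untagged reads, 2-fold on the floor of 3 counts, with p = 0.0156 in the authors' deposited table. The cluster at chr8:98254486-98254519 lay on TTTGCACTGA, with 6 reads at each of its overlapping miR-19 and miR-148 matches. The other, at chr8:98272854-98272906, held the miR-148 match TGCACTG, also with 6 reads. The highest 7mers of Cnot1 were elsewhere in the coding sequence, at chr8:98284509-98284516, where TGCTGCT of miR-15 and miR-16 and ATGCTGC of miR-103 overlap, each with 7 reads and no cluster. In the 3′ UTR of Cnot1, 0 of 10 listed sites had a read, which allows a share of up to 30% on a floor of 3 counts (exact upper bound 30.8%), and genes at its level had reads at 33.1% of such sites.

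Cnot2 and Cnot3 form the module that joins the scaffold to several recruiting proteins. Neither had a cluster, and each had 5 reads in all at listed sites. In Cnot2 the best site was the 3′ UTR 7mer AATCCCT with 2 reads, followed by ACACAAC in coding sequence with 1. In Cnot3 a single read lay at the 5′ UTR 8mer CAACCCTA, and no other listed 7mer or 8mer had any.

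Pan3 had 1 cluster, annotated as coding by the authors, at chr5:148242190-148242230. It had 9 tagged reads and 2 implied untagged reads, with p = 0.0327 in the authors' deposited table. The ratio was 4.5, with an exact interval of 0.931 to 42.8. This interval includes equality, and the cluster overlapped no listed match. Sites that the site table places in the 5′ UTR of 1 Pan3 isoform lie downstream of it, at chr5:148242338-148242516. The site table lists no coding site of Pan3, so what this stretch is in each isoform cannot be told here. In the 3′ UTR of Pan3, GTGCCTT and the miR-19 match TTTGCAC had 2 reads each and AGCACTT had 1. None of these was in a cluster.

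Over the group, 15 of the 24 clusters (62.5%) overlapped a listed 7mer or 8mer, and the background over all clusters was 34.2%. Of 18 clusters in 3′ UTRs, 11 did (46.3% over all genes), and of 6 coding clusters, 4 did (30.5%). With 6mers included, 19 did, and the background over all clusters was 53%, not split by region. The backgrounds over all clusters include regions other than 3′ UTRs and coding sequence, where none of the 24 lay. The remaining 5 clusters, of Cnot6, Cnot6l and Pan3, held no listed match. An 8mer that extends no listed seed lay under 12 of the 24 clusters, and no share over all clusters is given here for such 8mers. The cluster list also gives the position with the most crosslink events. In the 13 clusters with a longer match and a deposited crosslink position, the nearest such position was upstream of the match in 9 (69.2%), inside it in 3 and downstream in 1. Over 1538 clusters of all genes the upstream share was 49.3%. It was upstream by 10 nt or less in 6 of the 13 (46.2%, against 31.7%), and the other upstream positions lay 28, 44 and 62 nt away. With only 13 clusters, the difference from all genes was not tested.

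Reads at seed matches give a second measure that does not depend on cluster calling. It comes from the same tagged library, so it is not separate evidence, and no untagged reads are set against it. At least 1 read was found at 165 of the 599 listed sites (27.5%, exact 95% interval 24 to 31.3), and the background over all genes was 10.7%. All genes in the same region and the same step of 0.5 log2 FPKM would give 17.8%. In 3′ UTRs the share was 33.9% (99 of 292, 28.5 to 39.6), against 17% at matched expression and 16.5% without matching. In coding sequence it was 22.9% (62 of 271, 18 to 28.3), against 19.5% matched and 11.5% unmatched. The matched share lay below the interval in 3′ UTRs and inside it in coding sequence. In 5′ UTRs 4 of 36 sites had a read (11.1%, 3.11 to 26.1, background 10.2%), 3 of them in Cnot3, where 3 of 4 such sites did. Inside an enriched cluster lay 22 of the 292 sites in 3′ UTRs (7.53%, against 1.73% of all genes' sites) and 9 of the 271 in coding sequence (3.32%, against 0.392%).

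**Figure D3:**
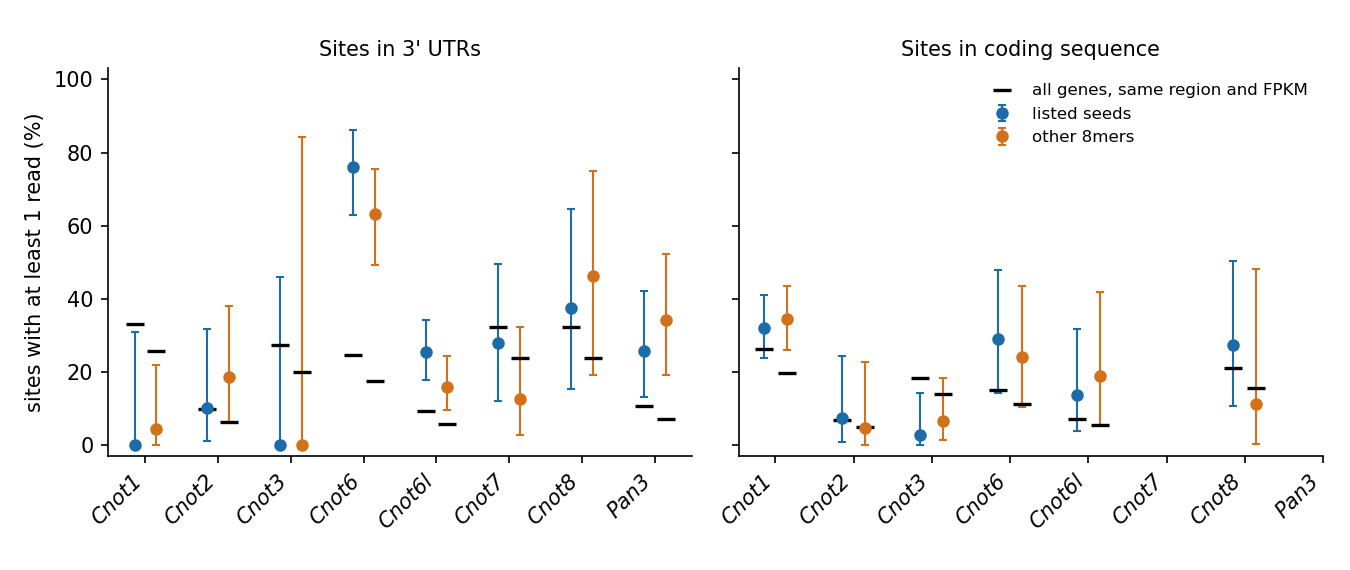
Percent of sites with at least 1 read, by gene, in 3′ UTRs (left) and coding sequence (right), for matches to listed seeds and for other 8mers. Bars are exact 95% intervals for counting error and black dashes the share over all genes in the same region at the same FPKM. Cnot6 is highest in 3′ UTRs at 75.9% and 63.2%, and the site table held no coding site of Cnot7 or Pan3.

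In the plot of shares by gene, 3 genes had a share in 3′ UTRs whose interval lay above that of matched genes. In the 3′ UTR of Cnot6, 44 of 58 listed sites had a read (75.9%, 62.8 to 86.1), 3.08 times the share at matched expression. In Cnot6l it was 30 of 118 (25.4%, 17.9 to 34.3), 2.72 times. In Pan3 it was 10 of 39 (25.6%, 13 to 42.1), 2.41 times, with no site above 2 reads. The matched share for these genes was 24.7%, 9.33% and 10.6%.

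The other genes were near or below their matched share. Cnot7 had reads at 7 of 25 listed 3′ UTR sites (28%, 12.1 to 49.4, matched 32.2%), and Cnot8 at 6 of 16 (37.5%, 15.2 to 64.6, matched 32.2%). Cnot2 had 2 of 20 (10%, 1.23 to 31.7, matched 9.83%). These intervals hold the matched share, so no difference was detectable at this depth. In coding sequence Cnot1 had reads at 40 of 125 sites (32%, 23.9 to 40.9, matched 26.3%). Cnot3 was low, with reads at 1 of 37 coding sites (2.7%, 0.0684 to 14.2), where matched genes gave 18.2%.

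The excess in Cnot6, Cnot6l and Pan3 was not limited to listed seeds. At 8mers that extend no listed seed, 36 of 57 sites in the 3′ UTR of Cnot6 had a read (63.2%, 49.3 to 75.6), 3.62 times the matched share of other 8mers. Cnot6l had 17 of 106 (16%, 9.63 to 24.4), 2.82 times, and Pan3 12 of 35 (34.3%, 19.1 to 52.2), 4.87 times. At these 8mers the interval also lay above the matched share in places where it had not at listed sites. In the coding sequence of Cnot1 it was 42 of 122 (34.4%, 26.1 to 43.6, matched 19.8%), and in the 3′ UTR of Cnot2 it was 5 of 27 (18.5%, 6.3 to 38.1, matched 6.24%). Cnot6l coding sequence, with 4 of 21 (19%, 5.45 to 41.9, matched 5.38%), and the 5′ UTR of Cnot1, with 4 of 4 (39.8 to 100%, matched 24.7%), were the others. Over all 8 genes 145 of 573 other 8mers had a read (25.3%, 21.8 to 29.1), and the background was 7.21%. In 3′ UTRs this was 27.9% (background 11.5%) and in coding sequence 23.4% (18.3 to 29.2, background 8.46%). The matched share for coding other 8mers was 15%, below the interval, whereas for listed coding sites it was inside. The ratio to matched genes was 1.54 for listed sites and 1.9 for other 8mers. Sites near each other can share reads, so neither count is of independent events.

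By length of match, the share with a read was highest at 8mers, with intervals that overlap. In the 3′ UTRs of the group, 10 of 23 8mers had a read (43.5%, 23.2 to 65.5), 24 of 66 7mers (36.4%, 24.9 to 49.1) and 65 of 203 6mers (32%, 25.7 to 38.9). All genes gave 21.2%, 19.7% and 15.1%. Within Cnot6 the 6mers, at 76.3% (29 of 38, 59.8 to 88.6), had reads as often as the 8mers, at 83.3% (5 of 6, 35.9 to 99.6), within counting error. Within Cnot6l the shares were 50% for 8mers (4 of 8, 15.7 to 84.3) and 23.6% for 6mers (21 of 89, 15.2 to 33.8).

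By seed family, the miR-19 match had the most reads at 7mers and 8mers, 55, and with 6mers included it came after the miR-291a family, with 71 reads against 78. At 7mers and 8mers, 8 of 9 miR-19 sites had a read, with 55 reads in 5 genes, 28 of them in Cnot6, 10 in Cnot6l, 8 in Cnot7, 7 in Cnot1 and 2 in Pan3. Over all genes 25.8% of miR-19 sites had a read. These 55 made up 20.7% of the reads at the group's 7mers and 8mers, and the family's share over all genes was 5.26%. The miR-148 and miR-152 family had 32 reads at 5 of 6 sites, 17 in Cnot1 and 15 in Cnot6, 12% of the group's reads against 3.45% over all genes.

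For the miR-291a family the direction depended on the match lengths counted, and for the miR-17 family the shares at 7mers and 8mers were near each other. The miR-291a, miR-294 and miR-302 family, with the miR-290a-3p match, had 38 reads at 6 of 7 sites, 14.3% against 19%. The miR-17 and miR-20 family had 32 reads at 5 of 5 sites, 12% against 12.6%, in 5 genes. With 6mers included these shares were 13.8% against 10.5% for the miR-291a family and 9.17% against 6.79% for the miR-17 family, above those over all genes. In the miR-291a family the reads at 6mers all lay in the Cnot6 3′ UTR, at GCACTT sites with 30 and 10 reads. At 7mers and 8mers the 5p arm of miR-290a had 21 reads, 18 of them in Cnot6. At these lengths the miR-23 match had reads in Cnot6l alone, with 9, and the miR-423-3p match in Cnot6 alone, with 8. With 6mers included, Cnot1 also had reads at a miR-23 match and Cnot3 at a miR-423-3p match. With few sites per family, and with overlapping matches that share reads, these shares are a description of 1 library.

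**Figure D4:**
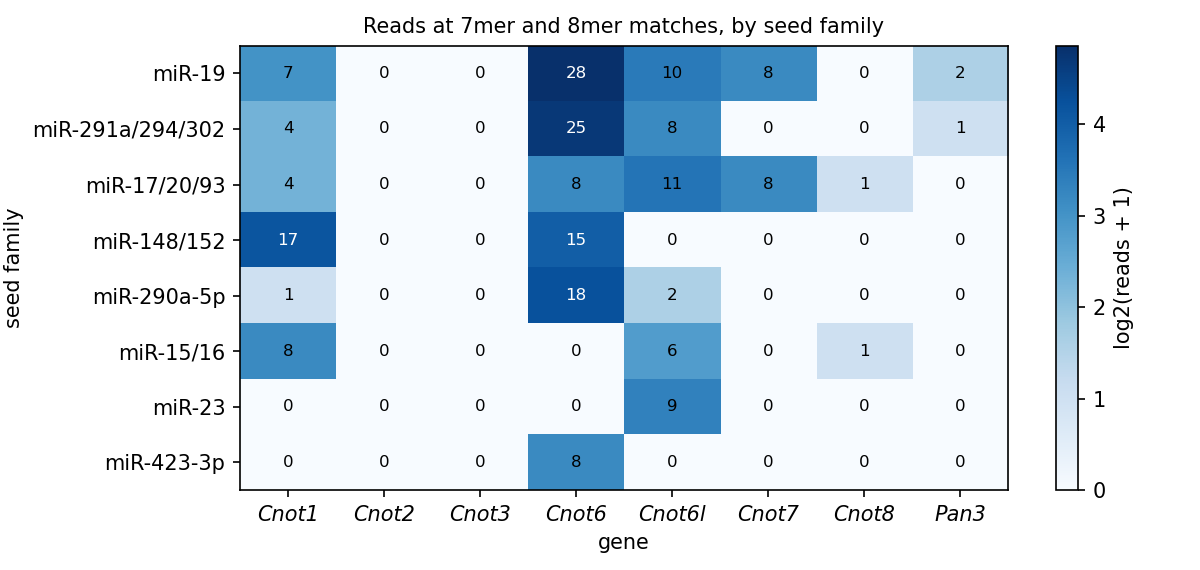
Reads at 7mer and 8mer matches of 8 seed families (rows) in each gene (columns), coloured by log2(reads + 1) and labelled with the number of reads, with reads under overlapping matches counted in each family. The miR-19 row holds 28 reads in Cnot6, 10 in Cnot6l, 8 in Cnot7 and 7 in Cnot1, and Cnot2 and Cnot3 are at 0 throughout.

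The grid of reads by family and gene shows Cnot6 with reads in 6 of the 8 families. Cnot6l had reads in 6, and the 2 genes differed in which. The listed 3′ UTR sites of the group were conserved whether or not they had reads. The median PhastCons score, which runs from 0 to 1 with conservation across species, was 0.991 at sites of Cnot6 with a read and 0.96 at those without, and 0.98 at both kinds in Cnot6l. Over all genes these medians were 0.142 and 0.0253. Cnot8 was the exception, at 0.0834 and 0.0544. In Cnot7 the median was 0.787 at 7 sites with a read and 0.999 at 18 without.

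Other genes of the pathway were taken from lists by role, chosen with earlier results of these data known. A cluster was present in 23 of the 57 genes found in the site table (40.4%). The background was 17.1% of all genes and 22.2% of those listed at 1 FPKM or more. The adaptors, which bring the deadenylase to particular transcripts, had clusters in 13 of 23 (56.5%, exact interval 34.5 to 76.8). Tob1 and Btg2, antiproliferative proteins that bind the CAF1-type nucleases, had 11 each, with 118 and 80 tagged reads against 4 and 1 untagged. Tnrc6b and Tnrc6a, the GW182 proteins that link Argonaute to the complex, had 10 and 8, with 109 and 90 tagged reads against 3 and 0. Btg1 at 20.6 FPKM, Zfp36l2 at 13.3 and Btg3 at 11.9 had none.

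Of the other CCR4-NOT subunits 3 of 5 had a cluster (60%, exact interval 14.7 to 94.7), and this interval includes the 17.1% of all genes. The gene Rqcd1, now Cnot9, and Tnks1bp1 had 2 each, with 13 and 10 reads, and Cnot4, a ubiquitin ligase, had 1 with 15 reads. Cnot11, listed under an older name, and Cnot10 had none, at 36.8 and 7.43 FPKM. Of the other deadenylases 3 of 6 had a cluster (50%, exact interval 11.8 to 88.2), which also includes that 17.1%. Angel1 had 2 clusters with 52 reads, Noct 2 with 10, and Pde12, a mitochondrial enzyme, 1 with 8. Parn, Angel2 and Pan2, the nuclease partner of Pan3, had none, at 20.5, 8.86 and 5.54 FPKM.

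Poly(A) binding proteins coat the tail that the deadenylases remove. Their genes, listed in 1 role together with the Paip genes, had a cluster in 0 of 6 (exact interval 0 to 45.9%). This interval includes the 17.1% of all genes and the 22.2% of those at 1 FPKM or more. Pabpc1 was listed at 879 FPKM, Pabpn1 at 137 and Paip2 at 94. Decapping and decay factors, which act after deadenylation, had clusters in 4 of 17 (23.5%, 6.81 to 49.9), near the same backgrounds. The helicase gene Ddx6 and the decapping enzyme gene Dcp2 had 4 each, with 30 and 28 reads. Lsm14b had 2 with 13 reads, and the exonuclease gene Xrn1 had 1 with 8. Lsm3 and Lsm4, both at 129 FPKM, and Lsm14a at 69.4 had none.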

How the data were processed

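iCLIP of tagged and untagged Ago2 gave 1 library each. Bowtie, TopHat, mm9 and NCBIM37 are named, with no versions or roles, in the submitters' processing notes. What called the clusters and what gave the expression values is not stated there or in the labels. Clusters come with a peak height, a signal in whole reads per the file headers, and a deposited score text that joins tagged reads, log2 enrichment and a binomial p-value, kept as other text. The untagged number of a cluster was solved from the authors' log2, taken as that of (tagged + 1) over (untagged + 1), and a whole number fitted to 0.005 or better for each of the 6211 clusters. The deposited crosslink column is other text, with offsets counted from the low coordinate end (shared in 256 of 297 overlapping pairs, against 4 from the high end). The site table gives coverage in rpm scaled by the authors, isoform FPKM as deposited, log2 coverage corrected by the authors, and PhastCons, a score per the file headers. One read was worth 1.27 rpm, and 100% of entries came out as whole reads to 0.001. Site reads of the untagged library were not analysed here, so no count test could be run on the recovered reads and no genes are called by one.

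Rows with equal position, strand and sequence were counted once (22927 repeats), and 25025 6mers and 12225 7mers inside longer matches were left out, with 170165 other 8mers that overlap a listed match. A cluster overlapped a match when both shared 1 nt or more and the strand. It was read over 5993 clusters, without 216 that cross a splice junction and 2 of over 200 nt. The 50 seeds form 48 families, and 44 matched a RefSeq microRNA. Intervals are exact (Clopper-Pearson, 95%). The steps were tested on simulated data. Python 3.11.15, pandas 2.3.3, numpy 2.4.6, scipy 1.17.1 and matplotlib 3.10.9 were used.

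The members and lists were chosen with earlier results of these data known. Named are all members, for each the 3 clusters with the lowest p and the 3 distinct 7mer or 8mer sites with the most reads, and in each role the 4 other genes with the most clusters and the 3 of highest FPKM without a cluster. Stretches under clusters are all printed. Alternatives were a stricter p, Benjamini-Hochberg adjustment, merged clusters, other match types, 2 reads, and entries as listed. Added after seeing the data were overlapping clusters or matches merged and members left out.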

Additional observations from a re-analysis of the deposited data

How the results depend on the processing

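With the authors' p under 0.01 in place of 0.05, 3 members (Cnot6, Cnot6l and Cnot8) and 15 clusters remained of 6 and 24, and the clusters of Cnot1, Cnot7 and Pan3 were lost. The share of listed sites with a read, 27.5%, was 13% at 2 reads or more, 5.18% for sites inside a cluster, 33.9% in 3′ UTRs and 32% for 7mers and 8mers. Without Cnot6 it was 22%, and without Cnot6 and Cnot6l 21.8%, both chosen after seeing the data. No matched share was computed for these reduced sets, and the 17.8% given for all 8 genes does not apply to them. Over all regions the ratio to matched genes was 1.12 in Cnot1, 0.965 in Cnot2, 0.433 in Cnot3, 0.737 in Cnot7 and 1.18 in Cnot8. It was 2.32 in Pan3, 2.74 in Cnot6 and 2.54 in Cnot6l. Of 22 alternatives for the main counts and shares, the other 14 stayed within 1.5 times or within the interval. Clusters numbered 17 merged within 50 nt, 19 merged where overlapping and 18 in 3′ UTRs. Those over a listed match numbered 10 to 19, and 14 clusters held the whole match. Another of the 14 alternatives that stayed exchanged the match type. With 8mers that extend no listed seed it gave 12 clusters, beside 15 over a listed 7mer or 8mer. Benjamini-Hochberg adjustment changed nothing, but the list holds only clusters that had already passed. Clusters had at least 5 reads, so weaker binding in genes without a cluster is not seen. No paired analysis was possible because each line had 1 library.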

Other observations

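Some values of the group fell outside the comparisons above and were chosen after they were seen. The Cnot6l cluster at chr5:96503656-96503695, with 6 tagged reads and 0 untagged reads, held no listed match, and the overlapping 8mers GTGTGTAA and GGTGTGTA at its 3′ end had 6 reads each. The latter pairs with the seed of miR-329-3p and miR-362-3p. Where Cnot6 clusters at chr11:49487092-49487151 and chr11:49487134-49487199 overlap, the further 8mer GTGTGGCA had 18 reads. Near the 3′ end of Cnot1, which had no read at a listed 3′ UTR site, a cluster on the opposite strand at chr8:98242787-98242833 was assigned to the neighbouring gene Setd6, with 10 tagged reads and 0 untagged reads.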
